A study of Mus musculus with 6 samples.

Results

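The Lin28 and let-7 axis was followed in neural progenitor cells (NPCs) of mouse embryos that lack Ybx1, an RNA- and DNA-binding protein with a cold-shock domain. The 10 genes Lin28a, Lin28b, Dis3l2, Trim71, Hmga2, Hmga1, Igf2bp1, Igf2bp2, Igf2bp3 and Arid3a were given as a list by symbol, and all 10 were found among the 51733 gene symbols counted in each library. All 6 libraries were made from total RNA of cells that were dissected from C57BL/6 neural tubes at E13.5 and sorted for a Sox2-eGFP reporter (Sox2tm1Hoch), which every animal carried. The 3 control libraries came from wildtype siblings and the 3 Ybx1-KO libraries from embryos homozygous for the null allele Ybx1tm1Ley, a germline allele carried by every cell of the embryo and not by NPCs alone. They are named control 1, control 2 and control 3 and Ybx1-KO 1, Ybx1-KO 2 and Ybx1-KO 3. The sources used here do not say how many embryos went into a library or whether the libraries are from separate embryos, so p-values measure the spread between these libraries. The titles of controls 1 and 2 begin with a common number, those of Ybx1-KO 1 and 2 with another, and neither number is explained.

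Lin28a and Lin28b bind the precursors of let-7 microRNAs and block their maturation, and mature let-7 in turn binds the 3′ UTR of Lin28 and of other early genes and lowers their output. Because the arms repress each other, early tissues hold much Lin28 and little let-7, and later tissues the reverse. In the developing nervous system, Lin28 and the let-7 targets Hmga2 and Igf2bp1 are known as genes of young progenitors that decline as development proceeds.

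The let-7 microRNAs recognise their targets through the seed, bases 2 to 8 from the 5′ end. Of 11 mature let-7 family members in the RefSeq table (GRCm38.p6), 10 have the same seed and the remaining one, let-7j, differs in it. The following 4 are shown because they span the family, with the seed in capitals.
let-7a: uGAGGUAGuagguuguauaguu
let-7i: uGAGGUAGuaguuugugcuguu
miR-98: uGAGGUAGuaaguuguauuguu
let-7j: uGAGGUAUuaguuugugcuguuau

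The DNA letters that pair with the common seed, CTACCTC, were looked for on the transcript strand of the 3′ UTR of each gene, in the protein-coding transcript with the longest 3′ UTR in GENCODE M21 (GRCm38). A longer form of the same match, CTACCTCA, has an A after it, and each longer match is also counted as a short one. Lin28b, Hmga2, Igf2bp1 and Trim71 held 4 matches each, Lin28a and Arid3a 2, and Hmga1, Igf2bp2 and Igf2bp3 1. Dis3l2 held 0 in its 350 bases of 3′ UTR. All 4 matches of Trim71 had the following A, against 3 of 4 in Igf2bp1, 2 of 2 in Lin28a, 1 of 4 in Lin28b and 1 of 4 in Hmga2. The first match of each of the genes with 4 and of Lin28a is given with 20 bases before it and the match in capitals, 5′ to 3′ on the transcript strand, which is the minus strand of the genome in all 5.
Trim71, chr9:114512472-114512499: agtacaacattgcctaagtcCTACCTCA
Hmga2, chr10:120364224-120364251: ggggcgccgacattcaatttCTACCTCA
Lin28b, chr10:45381022-45381049: ccttcacccgggcgggaagtCTACCTCA
Igf2bp1, chr11:95961778-95961805: gcagtgctgtgcgaagtaaaCTACCTCA
Lin28a, chr4:134005189-134005216: ggagtgcacagcctgttgaaCTACCTCA

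Such matches are uncommon. Of 13325 tested genes with an annotated 3′ UTR, 89.9% held 0, 8.89% 1, 1.07% 2 and 0.188%, or 25 genes, 3 or more. Genes with many matches also had longer 3′ UTRs, with a median of 4466 bases at 3 or more matches against 1009 bases at 0. Among genes with a 3′ UTR of about the length of the Hmga2 one, which is 3014 bases long, 17.3% held a match and 0.175% held as many as Hmga2. For Trim71, with 5512 bases, the shares were 31.2% and 0.637%. A match is a run of letters and not a measured binding site.

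The control libraries held 20841990 to 23883542 counts on genes and the Ybx1-KO libraries 4743279 to 13321952, the fewest in Ybx1-KO 3. CPM is counts scaled to library size, here adjusted between libraries by TMM, a trimmed mean of log ratios between libraries. On that scale 3 counts stood for 0.14 to 0.426 CPM, a limit that covers counting error only. All 10 neural progenitor markers examined, Sox2 and Pax6 among them, had counts in every library, with summed levels of 1206 to 2022 CPM. Neuron markers summed to 1381 to 4877 CPM, and RNA of other cells was thus present beside that of NPCs. In bulk RNA, fewer cells of one kind cannot be told apart from less RNA per cell. Ybx1-KO 3 stood apart, with 59.5% of its tallied read pairs outside genes against 30.6 to 46.7% in the other libraries. Receptor genes for smell, pheromones and taste, which are silent in this tissue, summed to 3162 CPM there and to 24.5 to 107.8 CPM elsewhere. Its counts of some axis genes are therefore set against that level below, and its values elsewhere are uncorrected unless stated.

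Ybx1 itself had 238.5, 531 and 305.9 CPM in controls 1, 2 and 3 and 126, 55.4 and 9.66 CPM in Ybx1-KO 1, 2 and 3, with every Ybx1-KO library below every control. Its log2 fold change was -2.49 (SE 0.675, adjusted p = 0.302). Which part of the gene the allele removes is not given in the sources used here, so the remaining reads could not be placed. Here and below, log2 fold changes are Ybx1-KO over control from edgeR's quasi-likelihood test, with p-values adjusted by Benjamini-Hochberg over all 21330 genes tested. Genes were tested where the mean FPKM (counts per kilobase of exon, scaled to library size) exceeded 1 in either group. At an adjusted p under 0.05 and a fold change over 1.5, 0 of the genes tested were called, or 0%, and the smallest adjusted p was 0.167. DESeq2, run as an alternative, called 214 genes and limma-voom 0. None of the 10 axis genes was called by any of these tools.

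Trim71, Lin28a, Hmga2 and Igf2bp1 had the highest fold changes in Ybx1-KO NPCs among the axis genes, and Lin28b and Igf2bp2 had smaller ones. Of the 10 genes, 8 had a positive log2 fold change and 2 a negative one, while 13069 of all 21330 genes tested had a positive one. The median of the 10 was 0.76, beside 0.31 over all genes tested. With no filter on low counts the order of the medians turned, to 0.64 for the axis genes and 0.70 for all genes. An unadjusted p under 0.05 was reached by Trim71, Lin28a, Hmga2 and Igf2bp1, 4 of the 10, as higher in Ybx1-KO, beside 6.96% of all genes tested in that direction, and by 0 as lower, beside 4.26%. Trim71 was the only one of the 10 whose groups did not overlap, with Ybx1-KO above, which 4.99% of all genes tested showed. None of the 10 had all Ybx1-KO libraries below all controls, beside 8.16% of all genes tested. The other 9 overlapped, and in Lin28a, Lin28b, Hmga2, Igf2bp1 and Igf2bp2 control 2 was the only control that reached into the Ybx1-KO range. Lin28a and Trim71 passed the FPKM limit only in Ybx1-KO NPCs, so a positive fold change of these genes was in part set by the filter. The other 8 passed in both groups. Over the 13145 genes that passed in both groups, the median log2 fold change was -0.07. The 0.76 above includes Lin28a and Trim71 and is not a median over such genes alone. Singly, the 8 axis genes that passed in both groups ran from -0.42 for Dis3l2 to 1.52 for Hmga2.

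**Figure D1:**
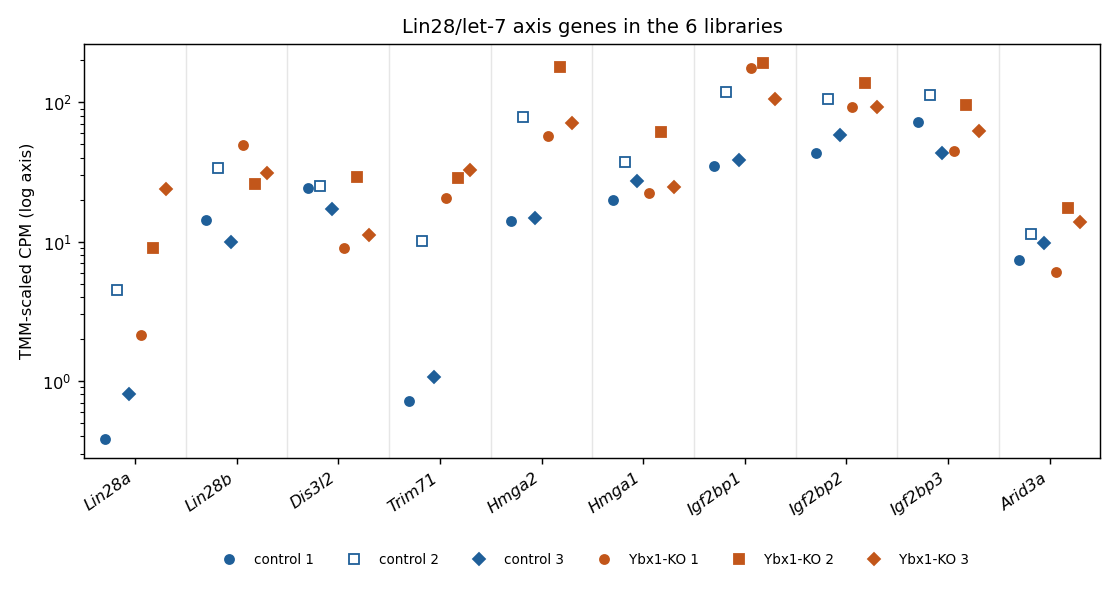
TMM-scaled CPM (log axis) of the 10 axis genes in each library, with controls in blue and Ybx1-KO in orange, and each point 1 library. Control 2, the open square, is the highest control for all 10 genes, and Trim71 alone has all Ybx1-KO libraries, from 20.4 to 32.7 CPM, above every control.

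Lin28a lies on chromosome 4 from 134003330 to 134018841. It had 0.384, 4.49 and 0.813 CPM in controls 1, 2 and 3. In Ybx1-KO 1, 2 and 3 it had 2.15, 8.93 and 23.9 CPM. Control 2 lay above Ybx1-KO 1 and below the other Ybx1-KO libraries, while controls 1 and 3 lay below all of them. The log2 fold change was 2.61 (SE 0.948, adjusted p = 0.430 by edgeR), or 6.10-fold. The highest library exceeded the lowest 11.7-fold within the controls and 11.1-fold within Ybx1-KO, and a two-sided exact permutation test gave p = 0.2, where 0.1 is the smallest p that 3 against 3 allow. With 1 library left out, here and below on the same tested genes unless stated, the log2 fold change of Lin28a ran from 1.52 without Ybx1-KO 3 to 4.26 without control 2. These are low counts, 8, 96 and 16 in the controls and 19, 86 and 168 in Ybx1-KO 1, 2 and 3.

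Lin28b, the paralogue on chromosome 10 from 45376620 to 45486395, was more abundant and differed less. It had 14.3, 33.9 and 10.0 CPM in controls 1, 2 and 3 and 49.2, 25.9 and 31.1 CPM in Ybx1-KO 1, 2 and 3. Controls 1 and 3 lay below all Ybx1-KO libraries, but control 2 exceeded Ybx1-KO 2 and 3. Lin28b had a log2 fold change of 0.87 (SE 0.467, adjusted p = 0.450 by edgeR). The exact permutation test gave p = 0.3, and without control 2 the log2 fold change was 1.54 (adjusted p = 0.330).

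Dis3l2 is the exonuclease that degrades let-7 precursors once Lin28 has led to their uridylation, and lies on chromosome 1 from 86703808 to 87050095. Its level was 24.2, 25.0 and 17.0 CPM in controls 1, 2 and 3 and 9.07, 29.0 and 11.2 CPM in Ybx1-KO 1, 2 and 3. Ybx1-KO 1 and 3 lay below all controls and Ybx1-KO 2 above them. The log2 fold change was -0.42, less than its SE of 0.468 (adjusted p = 0.677 by edgeR). Without Ybx1-KO 2 it was -1.12 (adjusted p = 0.241), with the remaining Ybx1-KO libraries below all controls.

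Among the let-7 targets, Trim71 (chromosome 9, 114507133 to 114564369), an RNA-binding ubiquitin ligase of early embryos, was nearly silent in controls 1 and 3. It had 0.720 and 1.07 CPM there, from 15 and 21 counts, and 10.1 CPM in control 2. The Ybx1-KO libraries had 20.4, 28.5 and 32.7 CPM, from 180, 274 and 230 counts. They were close to each other, with the highest 1.60 times the lowest, while the controls spanned 14.0-fold. The log2 fold change was 2.78 (SE 0.754, adjusted p = 0.302 by edgeR), or 6.86-fold, and the exact permutation test gave its smallest p, 0.1. Without control 2 the log2 fold change rose to 4.91 with an adjusted p of 8.6e-04, and Trim71 was also called without Ybx1-KO 1 (2.95, adjusted p = 0.042) and without Ybx1-KO 2 (2.74, adjusted p = 0.019). It was not called without control 1 (2.30, adjusted p = 0.787), control 3 (2.33, adjusted p = 0.639) or Ybx1-KO 3 (2.62, adjusted p = 0.151).

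Hmga2 (chromosome 10, 120361275 to 120476469) codes for an AT-hook chromatin protein of growing embryonic tissue and is the best known target of let-7. It had 14.0 and 14.7 CPM in controls 1 and 3 and 78.2 CPM in control 2. Ybx1-KO 1, 2 and 3 had 56.9, 178 and 71.2 CPM, and the exact permutation test gave p = 0.3. Ybx1-KO 2 was the only one above control 2, which was 5.46 times the mean of the other controls. Across all libraries it had a log2 fold change of 1.52 (SE 0.616, adjusted p = 0.443 by edgeR), and without control 2 it was 2.83 with an adjusted p of 0.028. With any other library left out it was not called on the same genes, at 0.85 without Ybx1-KO 2 (adjusted p = 0.384) and 1.14 to 1.81 without each of the remaining libraries, while it was called without Ybx1-KO 1 once the FPKM filter was applied again (1.76, adjusted p = 0.015).

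Hmga1 (chromosome 17, 27556497 to 27563674), the paralogue of Hmga2, was mixed between the groups. It had 20.0, 37.2 and 27.2 CPM in controls 1, 2 and 3 and 22.2, 61.0 and 24.6 CPM in Ybx1-KO 1, 2 and 3. Its log2 fold change was 0.36, with an SE of 0.440 (adjusted p = 0.712 by edgeR), and it was -0.26 without Ybx1-KO 2.

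The Igf2bp genes code for RNA-binding proteins that hold and protect mRNAs, and the 3 paralogues differed. Igf2bp1 (chromosome 11, 95957163 to 96005940) had 35.2, 117.5 and 38.7 CPM in controls 1, 2 and 3 and 176.7, 191.9 and 105 CPM in Ybx1-KO 1, 2 and 3. It overlapped only because Ybx1-KO 3 lay below control 2, and its log2 fold change was 1.31 (SE 0.493, adjusted p = 0.432 by edgeR), or 2.10 without control 2 (adjusted p = 0.111). The exact permutation test gave p = 0.2 for Igf2bp1. Igf2bp2 (chromosome 16, 22059009 to 22163299) had 43.5, 104.9 and 57.9 CPM in the controls and 92.9, 137.1 and 92.6 CPM in Ybx1-KO. Control 2 again lay inside the range of Ybx1-KO, and the log2 fold change was 0.64 (SE 0.419, adjusted p = 0.490 by edgeR). Igf2bp3 (chromosome 6, 49085223 to 49214957) had 72.6, 112 and 43.1 CPM in the controls and 44.9, 95.95 and 62.4 CPM in Ybx1-KO, with the groups fully mixed. Its log2 fold change of -0.16 was below its SE of 0.433 (adjusted p = 0.873 by edgeR). It turned positive, to 0.23, without control 2 and to 0.06 without Ybx1-KO 1.

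Arid3a (chromosome 10, 79927043 to 79955018), a DNA-binding protein with an ARID domain, had 7.39, 11.4 and 9.70 CPM in controls 1, 2 and 3 and 6.01, 17.5 and 13.9 CPM in Ybx1-KO 1, 2 and 3. Ybx1-KO 1 was the lowest library of all and Ybx1-KO 2 the highest. The log2 fold change was 0.39 (SE 0.515, adjusted p = 0.730 by edgeR).

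**Figure D2:**
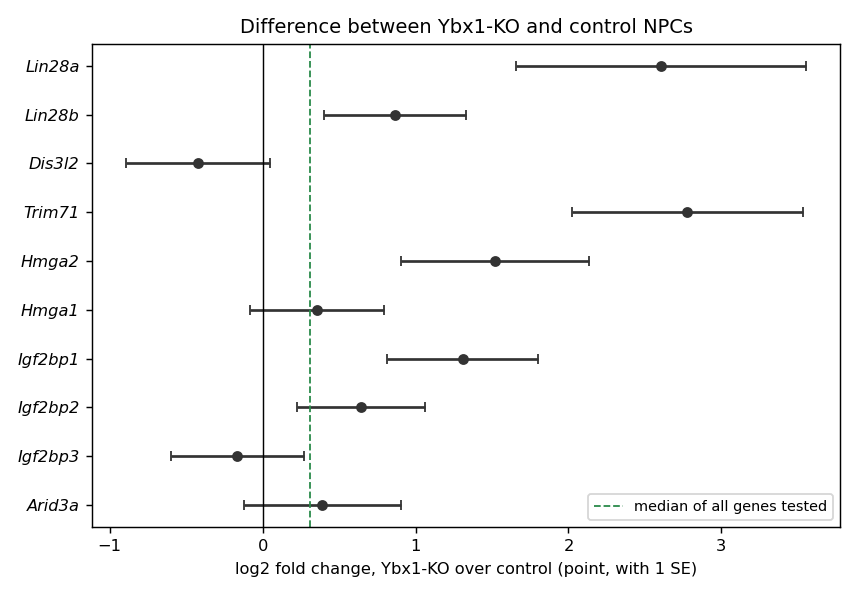
Log2 fold change of the 10 axis genes, Ybx1-KO over control, from edgeR's quasi-likelihood test (points, with 1 SE as bars, n = 3 per group), with the median of all genes tested, 0.31, as a dashed line. Trim71 and Lin28a lie farthest to the right at 2.78 and 2.61, and Dis3l2 and Igf2bp3 lie left of 0.

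The spread within the control group followed 1 library. Control 2 was the highest control in 10 of 10 axis genes, while it was the highest control in 30.1% of all genes tested. The excess of control 2 over the mean of the other controls ran from 1.21-fold for Dis3l2 to 11.3-fold for Trim71. In 6 genes, namely Lin28a, Lin28b, Hmga2, Igf2bp1, Igf2bp2 and Trim71, control 2 and all 3 Ybx1-KO libraries lay above controls 1 and 3. That order was shown by 5.54% of all genes tested and by 6.44% of genes that passed the FPKM limit in both groups. Of the 6, Lin28a and Trim71 passed that limit only in Ybx1-KO. Among the other let-7 targets described below, 8 of 28 tested, or 28.6%, showed the same order. Against control 2 alone, the mean of Ybx1-KO was 2.70-fold for Trim71, 2.59-fold for Lin28a, 1.34-fold for Igf2bp1 and 1.31-fold for Hmga2. It was 1.09-fold for Arid3a, 1.05-fold for Lin28b and 1.03-fold for Igf2bp2. The mean of Ybx1-KO was the lower one for Hmga1 (0.97-fold), Dis3l2 (0.66-fold) and Igf2bp3 (0.60-fold). Control 2 alone gives no replicate for these ratios.

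Globin and Hox genes divided the libraries in the same way, and the sum of the forebrain markers did not. Of the counts on globin genes, embryonic globins (Hba-x, Hbb-y and Hbb-bh1, made by the first red cells) held 21% in control 1, 94.7% in control 2 and 35% in control 3, against 88.7, 96.2 and 90.7% in Ybx1-KO 1, 2 and 3. The remainder fell on the adult-type globins Hba-a1, Hba-a2, Hbb-bs and Hbb-bt. The 39 Hox genes, which mark hindbrain and spinal cord, summed to 130.1, 1067 and 325.1 CPM in the controls and 1334, 1384 and 676.6 CPM in Ybx1-KO. Control 2 thus stood with the Ybx1-KO libraries by both measures. The 7 forebrain markers summed to 310.4, 292.7 and 431.7 CPM in the controls and 656.5, 396.8 and 168.9 CPM in Ybx1-KO, with control 2 beside control 1. Of the forebrain markers, Emx1 and Lhx2 singly had control 2 and all Ybx1-KO libraries below controls 1 and 3. Emx2, Six3, Otx1, Nr2f1 and Dmrta2 did not. The part of embryo stage, or of the levels of the neural tube sampled, in the values of the axis genes was not tested. The globin measure was chosen after its values had been seen.

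**Figure D3:**
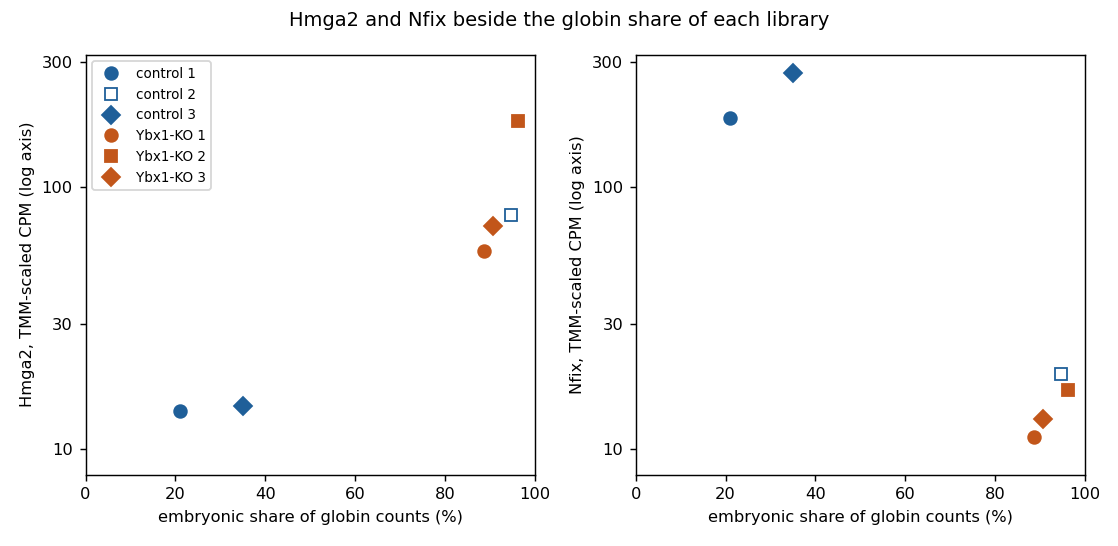
TMM-scaled CPM (log axes) of Hmga2, left, and Nfix, right, against the embryonic share of globin counts in percent, with each point 1 library. Controls 1 and 3, at 21 and 35%, lie apart from the other 4 libraries, all at 88.7% or more, and control 2 lies among the Ybx1-KO libraries for Hmga2 and just above them for Nfix.

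Lin28a is also high in pluripotent and germ cells, so 5 markers of those cells were examined. Together they had 0.457 to 3.37 CPM in the controls and 16.4, 1.04 and 17.6 CPM in Ybx1-KO 1, 2 and 3. The pluripotency genes Pou5f1 and Nanog were at 0 in Ybx1-KO 1 and 2 and at 1.14 and 7.25 CPM in Ybx1-KO 3. The germ cell helicase Ddx4 had 8.62, 0.104 and 8.10 CPM in Ybx1-KO 1, 2 and 3. Dppa3, another of the 5 markers, had 7.48, 0.831 and 0.568 CPM there. These values were not corrected for the level of the silent receptor genes, which was high in Ybx1-KO 3. Ybx1-KO 2, with 8.93 CPM of Lin28a, had 1.04 CPM of the summed markers, against 3.37 CPM in control 2. The part of such cells in the Lin28a level of any library was not tested. Mesenchyme markers were highest in control 1 (930 CPM) and neural crest markers in Ybx1-KO 2 (165 CPM). The silent receptor genes also gave a level of counts per kilobase of exon for each library. In Ybx1-KO 3 that level came to 14.9 of the 168 counts of Lin28a, 34.8 of the 230 counts of Trim71 and 33.2 of the 79 counts of Dis3l2. It came to 33.8 of the 219 counts of Lin28b and 20.7 of the 98 counts of Arid3a. Subtracted in every library, it left log2 fold changes of 2.71 for Lin28a, 2.81 for Trim71 and 1.56 for Hmga2. With it subtracted, Dis3l2 stayed negative and Arid3a positive, and their fold changes given above are uncorrected.

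Per kilobase of exon, Hmga1 had the highest level of the axis genes in control NPCs, 12.2 ± 3.16 FPKM (SD, n = 3), followed by Igf2bp3 with 8.67 ± 3.74, Igf2bp2 with 8.57 ± 3.62, Igf2bp1 with 6.04 ± 4.17 and Hmga2 with 4.79 ± 4.80. Dis3l2, Lin28b and Arid3a had 1.59 to 2.32 FPKM, and Lin28a and Trim71 the lowest levels, 0.429 ± 0.501 and 0.382 ± 0.505. Of these neighbours in the order of levels, Arid3a and Lin28a differed by more than the sum of their SDs and the other pairs did not. In Ybx1-KO NPCs, Igf2bp1 came first with 16.5 ± 2.34 FPKM (SD, n = 3), before Hmga1 with 16.3 ± 4.99, Igf2bp2 with 15.0 ± 3.10 and Hmga2 with 14.4 ± 5.23. Igf2bp3 had 8.52 ± 2.81, Lin28b 4.27 ± 1.93, Lin28a 3.68 ± 4.52 and Trim71 3.23 ± 1.71 FPKM, while Arid3a and Dis3l2 were lowest. No neighbours differed by more than the sum of their SDs there. These FPKM values are scaled to each library's own total, without TMM.

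The number of seed matches was set beside the fold changes of all genes. Among tested genes with 3 or more matches, 15 of 25 were higher in Ybx1-KO and the median log2 fold change was 0.09. Of those 25, 4 are Trim71, Hmga2, Lin28b and Igf2bp1. The other 21 had a median of 0.04 and 11 were higher. Over all 13325 tested genes with an annotated 3′ UTR the median was 0.04 and 6994 were higher. Medians for genes with 0, 1 and 2 matches were 0.05, -0.01 and 0.08.

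A list of 30 other let-7 targets from general knowledge held genes of either direction. Of 28 tested, 0 were called, and 16 were higher and 12 lower, while 13069 of all 21330 genes tested were higher. The median log2 fold change was 0.16, beside 0.31 over all genes tested. An unadjusted p under 0.05 was reached by 4 as higher (Prtg and, named after their values were seen, Arid3b, Hic2 and Ccnd1) and by Cdk6 and Map4k3, 2 genes, as lower, beside 6.96% and 4.26% of all genes tested. The groups did not overlap in 2 with Ybx1-KO above and in 5, or 17.9% of those tested, with Ybx1-KO below, beside 4.99% and 8.16% of all genes tested. Prtg, a surface receptor of early neuroepithelium, had 4.37, 8.19 and 1.93 CPM in controls 1, 2 and 3 and 9.64, 21.6 and 25.7 CPM in Ybx1-KO, all above the controls. Its log2 fold change was 1.97 (SE 0.584, adjusted p = 0.359 by edgeR), and with 1 library left out it ran from 1.59 to 2.59 and on the same genes was called only without Ybx1-KO 1 (2.29, adjusted p = 0.042). Cdk6, a kinase of the G1 phase, had 72.2, 61.6 and 53.8 CPM in the controls and 17.7, 47.1 and 28.6 CPM in Ybx1-KO, all below the controls. Map4k3, a kinase of nutrient signalling, likewise had every Ybx1-KO library below every control, with a log2 fold change of -0.95 (SE 0.393).

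Of 13 tested genes that make and use microRNAs, 0 were called and 0 had groups that did not overlap. None had an unadjusted p under 0.05 in either direction. That does not show these genes to be alike in the groups, as 0 of all genes tested were called. Their median was -0.06, and the largest changes were those of the Argonaute genes Ago4 and Ago3, at -0.99 (SE 0.487) and -0.77 (SE 0.424). Of 11 symbols for factors that act on let-7 precursors, 8 were in the tables and tested, since some stand for the same gene under an older and a newer name. None was called. The groups did not overlap in 1 with Ybx1-KO above and in 2 with Ybx1-KO below, beside 4.99% and 8.16% of all genes tested. Of the 8, 2 had an unadjusted p under 0.05, both higher in Ybx1-KO, beside 6.96% of all genes tested in that direction. These were Khsrp (log2 fold change 1.04, SE 0.450), which promotes let-7 maturation, and Msi1 (1.15, SE 0.513), a progenitor RNA-binding protein that assists Lin28a, both named after their values were seen. Zcchc6, one of the uridylating enzymes, had 94.7, 105.6 and 58.3 CPM in controls 1, 2 and 3 and 58.1, 52.2 and 36.7 CPM in Ybx1-KO, just without overlap. Hnrnpa1, which binds let-7 precursors and remodels other microRNA precursors, had 456, 401.8 and 361.2 CPM in the controls and 283.8, 222.4 and 168.4 CPM in Ybx1-KO, all below the controls. Trim25, which cooperates with Lin28a in uridylation, had 2.29 to 4.21 CPM in the controls and 5.10 to 6.82 CPM in Ybx1-KO, also without overlap, at a log2 fold change of 0.87 (SE 0.743).

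Mature let-7 was not measured, since libraries of this kind hold longer RNA. Of 15 rows for let-7, mir-98 and mir-125 hairpins, 6 had 0 counts in every library, and no row exceeded 31 counts in any. Mir98 had 5, 2 and 4 counts in controls 1, 2 and 3 and 0 in all Ybx1-KO libraries, and a difference was not detectable at this depth, since a count of 0 there allows 0.34, 0.312 and 0.426 CPM in Ybx1-KO 1, 2 and 3. Mir99ahg, the host transcript of a let-7c and mir-125b cluster, had enough counts. Its level was 120.4, 75.5 and 43.6 CPM in controls 1, 2 and 3 and 29.5, 33.2 and 45.9 CPM in Ybx1-KO 1, 2 and 3, overlapping only through Ybx1-KO 3. The log2 fold change was -1.14 (SE 0.423, adjusted p = 0.432 by edgeR). Of the 8 tested rows of the whole list of loci, 0 were called and 6 were lower, while 13069 of all 21330 genes tested were higher. Only 1 row, Mir98, did not overlap, with Ybx1-KO below, beside 8.16% of all genes tested.

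Hmga2 is known to keep neural stem cells dividing by lowering Cdkn2a through Junb. Cdkn2a had 0 counts in all controls and 0, 1 and 11 counts in Ybx1-KO 1, 2 and 3, and Cdkn2b had at most 8, so neither was tested. The 11 counts in Ybx1-KO 3 were not corrected for the level of the silent receptor genes in that library. Junb had 34.4, 39.1 and 114.4 CPM in the controls and 85.8, 86.0 and 22.5 CPM in Ybx1-KO, with a log2 fold change of 0.05 (SE 0.534) that turned negative in 4 of the 6 fits with 1 library left out. Of 4 RNAs that Igf2bp proteins bind, Igf2, H19, Actb and Myc, 0 were called, all had overlapping groups, and the median was -0.18. Myc had 15.0, 22.8 and 20.7 CPM in the controls and 11.2, 17.7 and 10.1 CPM in Ybx1-KO. Actb ranged from 1598 to 2860 CPM in the controls and from 1352 to 4555 CPM in Ybx1-KO.

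The tested genes of a list that come on in older progenitors and in glia ran opposite to most of the axis genes. Of 13 listed, 10 were tested and 10 had a negative log2 fold change, with a median of -1.76 beside 0.31 over all genes tested, although 0 were called. Fabp7, one of the 10, is also among the neural progenitor markers above. Gfap, Aqp4 and S100b were not tested. Their means were 0.115, 2.22 and 1.02 CPM in control and 0.805, 1.12 and 1.07 CPM in Ybx1-KO. An unadjusted p under 0.05 was reached by 7, beside 4.26% of all genes tested as lower, and 4 had all Ybx1-KO libraries below all controls, beside 8.16%. Nfix, a transcription factor of late progenitors, had 183.3, 19.4 and 273.4 CPM in controls 1, 2 and 3 and 11.1, 16.8 and 13.1 CPM in Ybx1-KO. Its log2 fold change was -3.54 (SE 0.680, adjusted p = 0.167 by edgeR), and ran from -2.89 without control 3 (adjusted p = 0.639) to -4.06 without control 2 (adjusted p = 7.5e-04). Nfib, its paralogue, had 690.1, 117.5 and 436 CPM in the controls and 35.2, 75.9 and 42.6 CPM in Ybx1-KO, at -3.02 (SE 0.60, adjusted p = 0.167 by edgeR).

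Slc1a3, the glutamate transporter of radial glia and astrocytes, and Ptprz1, a receptor phosphatase of radial glia, had every Ybx1-KO library below every control, at log2 fold changes of -1.78 (SE 0.424) and -1.39 (SE 0.423). Control 2 was the lowest control in 9 of the 10 genes, beside 29.7% of all genes tested. In 9 genes all Ybx1-KO libraries lay below controls 1 and 3, beside 11.6% of all genes tested. DESeq2 called 7 of the 10, all lower in Ybx1-KO, and 0 of the axis genes, beside 214 of all 21330 genes tested, 96 of them lower. In 9 of the 10, control 2 and all Ybx1-KO libraries lay below controls 1 and 3, beside 6.44% of all genes tested. That is how the globin and Hox levels above divided the libraries. Zbtb20 did not, with control 2 at 265.5 CPM between controls 1 and 3. In Ptprz1 control 2, at 166.4 CPM, lay nearer to control 3 (186.6 CPM) than to Ybx1-KO (68.2 to 105 CPM). The part of embryo stage in these genes was not tested.

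**Figure D4:**
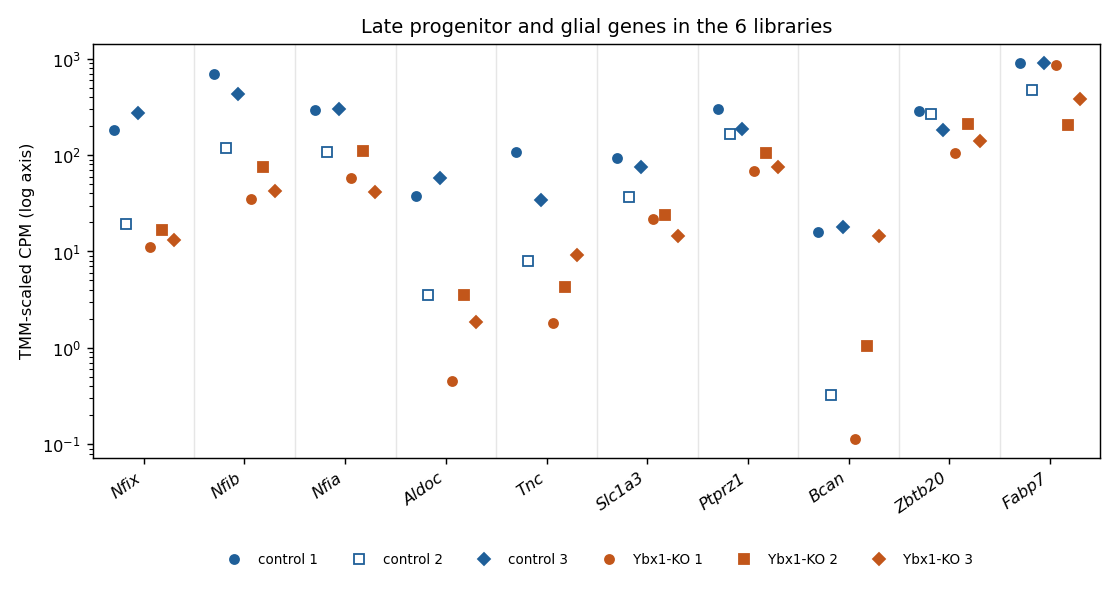
TMM-scaled CPM (log axis) of 10 late progenitor and glial genes in each library, with controls in blue and Ybx1-KO in orange, and each point 1 library. Control 2, the open square, is the lowest control in 9 of the 10 genes, beside 29.7% of all genes tested. For Nfix it lies at 19.4 CPM, near the Ybx1-KO libraries at 11.1 to 16.8 CPM.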

How the data were processed

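NPCs of 3 control and 3 Ybx1-KO libraries were profiled by stranded total RNA sequencing. The authors used HTSeq 0.6.1p1 with GENCODE gene models and deposited 1 table of raw counts by symbol for each library. Their processing notes also name CASAVA and the builds GRCm38.p5 and mm10, and the aligner and the strand setting of the counting are not given in the sources used here. Counts of overlapping and antisense genes are therefore uncertain, as are those of genes that share sequence with others, Hmga1 among them. The tallies of pairs outside genes stayed out of library sizes.

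Counts were scaled by TMM and tested with edgeR 4.0.16 (quasi-likelihood, no covariate) in R 4.3.3, with Benjamini-Hochberg adjustment over 21330 genes, at an adjusted p under 0.05 and a fold change over 1.5. The scripts were tested on simulated data. FPKM used each library's total and exon lengths of GENCODE M21 on GRCm38, the source of all gene coordinates. Single genes were also compared by a two-sided exact permutation test of log2(CPM + 0.5). DESeq2 1.42.0, limma-voom (limma 3.58.1), other scalings and filters, and removal of each library were alternatives. Depth ran from 4743279 to 23883542 counts. Every pair of libraries differed beyond sampling noise, at a chi-square over its degrees of freedom of 51.1 or more, so none was a second copy. Figures were drawn with matplotlib 3.10.9.

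The 10 axis genes and the lists were chosen with earlier results of these data known. All 10 were named. Of each list, up to 4 tested genes without overlap between the groups and with the smallest unadjusted p were named, filled up to 2 by that p where fewer than 2 qualified. A gene that meets this rule is not reported here. The genes shown in the plot of late genes are all those tested of that list.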

Additional observations from a re-analysis of the deposited data

How the results depend on the processing

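Across 24 alternatives, the log2 fold changes of Lin28a, Lin28b, Hmga2, Igf2bp1, Igf2bp2, Trim71, Dis3l2 and Arid3a kept their direction. Trim71 was called in 7 of them, Hmga2 in 3 and Lin28a in 2, and the other axis genes in 0. Igf2bp3 turned to 0.23 without control 2 (also with the FPKM filter applied again), and to 0.06 without Ybx1-KO 1 (0.0013 with the filter again). Hmga1 turned to -0.26 and -0.14 without Ybx1-KO 2, and Actb to -0.043. Junb turned to -0.0027 with no filter, and with the filter applied again to -0.19 without control 2, -0.24 without Ybx1-KO 1 and -0.16 without Ybx1-KO 2. With 1 library left out on the same genes, Igf2bp3 ran from -0.50 to 0.23, Hmga1 from -0.26 to 0.61, Actb from -0.043 to 0.71 (0.74 with the filter again) and Junb from -0.27 to 0.82.

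The number of genes called over the whole table was 214 by DESeq2 and 193 with no filter, and 0 by limma-voom, the other scalings, the other filters, robust dispersion, protein-coding genes alone and subtraction of the silent receptor level, an alternative added after the data were seen. With 1 library left out it ran from 0 to 420 on the same genes and from 0 to 946 with the filter applied again (73 without control 2, 696 without Ybx1-KO 1). Axis genes called were 1, Trim71, with no filter, and 0 to 3 with libraries left out. Axis genes without overlap were 2 by RLE and upper quartile scaling, DESeq2 and in protein-coding genes alone, with Igf2bp1 joining Trim71, and 3 by total count, with Igf2bp2, and 1 to 6 with libraries left out (6 without control 2). The median of the axis genes ran from 0.54 to 1.32 with libraries left out. Late genes called were 7 by DESeq2 and 4 with no filter, and 0 to 6 with libraries left out (5 without control 2 or Ybx1-KO 1 with the filter again), and let-7 targets 0 to 1. The other lists had 0 calls under every alternative. The scaling moved the median of all genes to 0.40 (RLE) and 0.53 (total count), and it was -0.07 without Ybx1-KO 3. With no filter it was 0.70, above the 0.64 of the axis genes. No paired analysis was possible because the libraries' own numbers in the labels tie no control to any Ybx1-KO sample.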
